A study of Chlamydomonas reinhardtii with 2 samples.

Results

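The genes described here are the plastid genes of the unicellular green alga Chlamydomonas reinhardtii that lie outside photosynthesis by name: ribosomal proteins, RNA polymerase subunits, tufA, clpP, an intron-encoded frame and other open reading frames. They were taken as the annotated plastome genes whose symbols do not begin with the names of photosystem, cytochrome, ATP synthase, Rubisco, chlorophyll synthesis or related photosynthesis genes. This gave 34 genes in 35 rows, of 72 plastid genes in 74 rows and 17693 annotated rows in all. Levels were measured by RNA sequencing in CC5325 and in CC125, 2 strains that the labels call WT, with 1 library each. Both cultures were grown with acetate in TAP medium at 25 °C in light of 20 μmol photons per m2 per s, with no further treatment named. The protocol describes depletion of ribosomal RNA, while the molecule field names polyA RNA. With 1 library per strain differences cannot be checked against replicates and are given without a p-value. In whole cultures fewer cells with an RNA and less RNA per cell cannot be told apart.

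The chloroplast keeps a small genome of its own, and a bacterial-type machinery reads it. A plastid-encoded RNA polymerase, built from the products of the rpo genes together with nuclear factors, makes the transcripts, and ribosomes of bacterial type translate them. Their proteins are divided between the plastid (rps for the small subunit, rpl for the large one) and the nucleus. Many algal plastid genes are transcribed together in clusters, and part of the genome is present as an inverted repeat, so that a gene in the repeat has a pair of copies.

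The 34 genes divided into 11 small-subunit and 7 large-subunit ribosomal protein genes, 5 RNA polymerase rows, tufA, clpP and 9 other frames. Of those other frames 3, pafI, pafII and ycf12, encode photosynthesis proteins under names that the rule does not list: pafI and pafII (also called ycf3 and ycf4) encode photosystem I assembly factors, and ycf12 a small photosystem II protein. They were kept, since the rule takes them. None of these 3 had a mean of 1 TPM, or 3 reads in both libraries together. Leaving them out therefore could not change the count of genes past 2-fold or that of counting intervals off equality. The counts by position and by class include them. The icreI frame lies in the inverted repeat and was counted as 1 gene by the mean of its copies. Strain identity could not be checked with mating-type genes, because FUS1 and MTD1 were listed at 0 in both libraries.

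Most of these genes were near the limit of detection. Their deposited coverage, the mean number of reads per base, summed to the equivalent of 84 reads of 150 bases in the CC5325 library and 147 in the CC125 library. This was 0.0780% of the reads in annotated genes of CC5325 and 0.428% in CC125. Annotated genes themselves held at most 16.2 Mb of the 5.81 Gb aligned in CC5325, and at most 5.14 Mb of the 3.18 Gb aligned in CC125. Totals and read counts over all annotated rows are upper limits, because nuclear spans hold introns. The shares of 0.0780% and 0.428% may therefore be too low. One read of 150 bases in a gene of 1000 bases came to 0.0588 TPM, the length-scaled relative abundance of the files, in CC5325 and 0.130 TPM in CC125, so values of that size are single reads. In CC5325 28 of the 34 genes (82.4%) were listed above 0, and in CC125 31 (91.2%). Of all annotated rows 53.3% were in CC5325 and 21.2% in CC125. At least 3 reads were reached by 11 genes in CC5325 (32.4%) and 7 in CC125 (20.6%). Of all annotated rows 22.1% reached them in CC5325 and 3.93% in CC125, so few reads are not particular to these genes. None of the 34 reached 1 TPM in CC5325, and icreI and rps7 did in CC125.

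In the CC125 library most of these genes between the 2 copies of psbA shared 1 of 2 coverage values, set by strand. This stretch, between plastome positions 54473 and 137977, holds 15 of the 34 genes. On the plus strand the lowest CC125 coverage of any gene there was 0.657, and 10 of 14 genes lay within 10% of it, rps3 and rpoC2 among them. On the minus strand the lowest was 0.107, and 11 of 22 genes lay within 10% of it. Those 11 were ycf12, orf202, rpoA, rps2, pafI, pafII, rps9 and rpoB1 with 3 photosynthesis genes. The level did not follow the length of the gene, since the plus-strand genes spanned 425 to 9842 bases and the minus-strand genes 230 to 3847 bases. Photosynthesis genes showed it too, so it is not particular to gene-expression genes.

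The same genes had scattered values in the CC5325 library. The 10 plus-strand genes ran there from 0.00390 to 2.12 reads per base, and the 11 minus-strand genes from 0 to 0.372, with 3 of them at 0. In CC125 the shared values, called the strand floor below, amounted to 90.4% of the aligned bases in these 15 genes, and in CC5325 the lowest values of each strand came to 1.26%. An assembled locus of the CC125 table runs on the plus strand from 37157 to 155095 across the whole stretch, with a listed coverage of 4508. CC5325 has one with nearly the same ends, from 37161 to 155091, with a coverage of 1372. The part of these loci in the shared values was not tested. Coverage times span was a whole number of bases, within 0.05, in 14 of the 18 listed genes outside the stretch in CC5325. The 14 take icreI by its copy at 43113 alone, with 1712 bases, while the copy at 148278 had 1918.35. In CC125 the number was whole in 9 of 16 genes outside the stretch. Inside the stretch it was whole in 1 of 10 genes in CC5325 and 1 of 15 in CC125. Fractional values were not particular to the stretch. Right of the repeat copies in CC125, ycf1, rps12, orf528, rpoC1 and orf854 had them too, and ftsH did not.

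**Figure D1:**
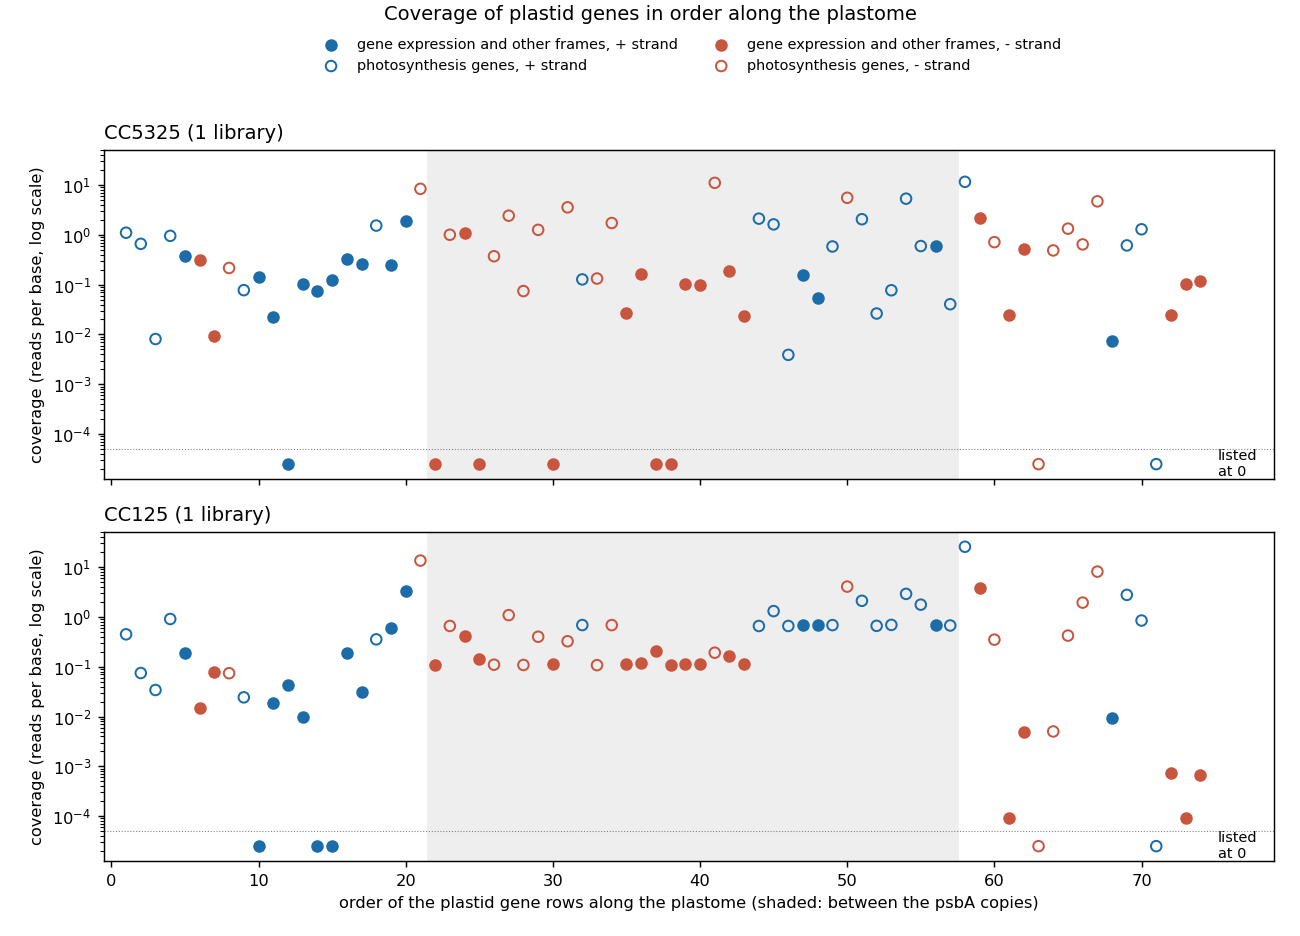
Coverage (reads per base, log axis) of the 74 plastid gene rows in their order along the plastome, CC5325 above and CC125 below; filled points are the 35 rows described here, open points photosynthesis genes, colours the strands, and the shaded part lies between the psbA copies. In CC5325 the shaded genes scatter, while in CC125 10 plus-strand genes line up at 0.657 to 0.698 and 11 minus-strand genes at 0.107 to 0.118.

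**Figure D2:**
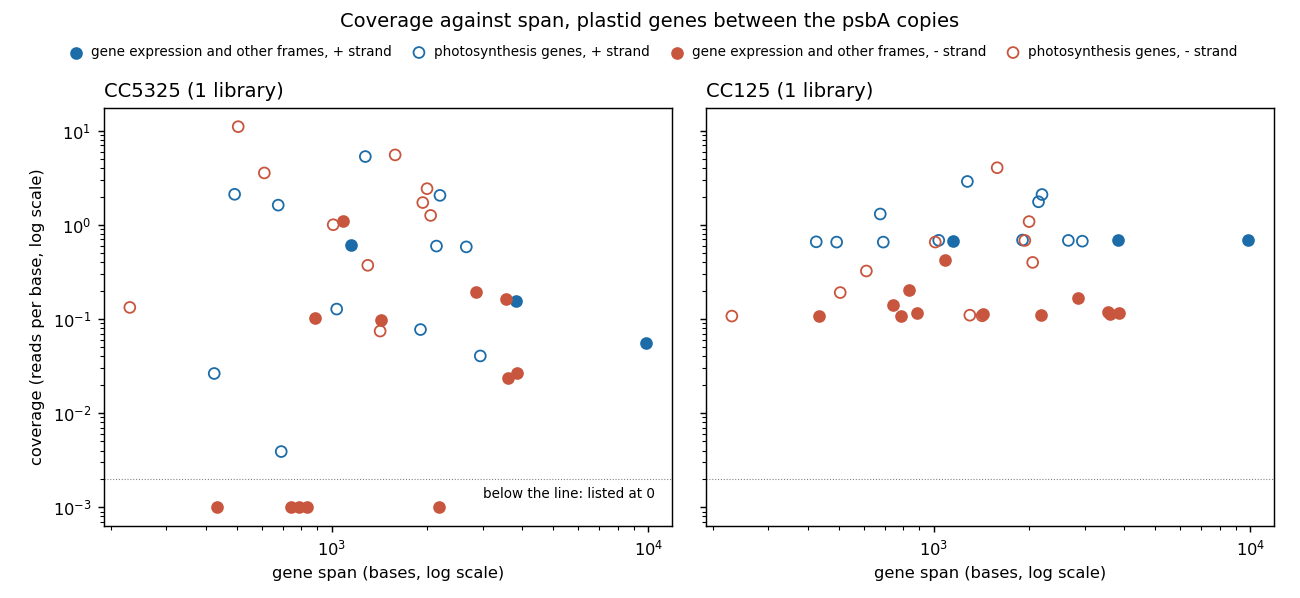
Coverage (reads per base, log axis) against gene span (bases, log axis) for plastid genes between the psbA copies, CC5325 on the left and CC125 on the right, 1 point per gene. In CC125, 10 plus-strand and 11 minus-strand genes form flat rows over spans from 230 to 9842 bases.

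Small-subunit ribosomal protein genes were the best covered of the ribosomal classes. Their 11 genes held 4611 aligned bases in CC5325 and 6023 in CC125, and their median coverage was 0.164 in CC5325 and 0.140 in CC125. The highest in CC5325 was rps7 (CreCp.g802288, plastome 60125 to 61210), which encodes a protein of the head of the small subunit. It had 0.748 TPM in CC5325, against 3.48 TPM in CC125. On the log2(TPM + 1) scale its ratio of CC5325 to CC125 was -1.36. Its coverage went the other way, at 1.103 reads per base in CC5325 and 0.419 in CC125. Scaled to the library, coverage gives 0.432 TPM in CC5325, against 0.364 TPM in CC125, a ratio of 1.19 with a 95% counting interval of 0.289 to 7.04. No difference is read from rps7, because the direction depends on which deposited column is used and the interval takes in equality.

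TPM and coverage also gave different levels in rps18 (CreCp.g802300, 89523 to 90358), at 0 in CC5325 and 0.970 TPM in CC125, where coverage gives 0.176 TPM. These were the 2 genes whose CC125 TPM exceeded 1.5 times what coverage gives, and in CC5325 rps7 was the 1 gene. Taken alone, the icreI copy at 148278 also did in CC125, with 6.08 TPM against 3.34 from coverage. In CC125 icreI, rps7 and rps18 were the 3 genes with an assembled locus of exactly the same ends, and in CC5325 icreI and rps7 were the 2.

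Outside the psbA stretch, rps4 (CreCp.g802283, 32480 to 34526), for a protein that in bacteria starts assembly of the small subunit, was lower in CC5325 on the library-wide scale. It had 0.0973 TPM in CC5325, against 0.521 TPM in CC125, from 509 aligned bases (about 3 reads) in CC5325 and 1227 (about 8) in CC125. By coverage it was 5.35-fold higher in CC125 (1.42 to 34.6). Scaled to plastid photosynthesis genes outside the repeat and the stretch, the ratio of CC5325 to CC125 was 0.522 and its interval, 0.0808 to 1.97, took in equality. That scale pools genes left and right of the repeat copies. Their library-wide ratios were 0.989 (0.451 to 2.35) on the left, where rps4 lies, and 0.307 (0.229 to 0.409) on the right. The rps19 gene had values in the opposite order to rps4, 0.0412 TPM in CC5325 against 0.00830 in CC125, where 8 bases were aligned. The rps12 gene (CreCp.g802325, 169282 to 170232), for a decoding-centre protein, had 0.203 TPM in CC5325, against 0.00420 TPM in CC125, from 493 bases in CC5325 and under 5 in CC125. Both rest on at most 3 reads in CC5325, so neither is separated from equality.

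Within the stretch, rps3 (CreCp.g802310, 103097 to 106907) had 0.0606 TPM in CC5325, against 0.606 TPM in CC125. The CC125 value lies at the plus-strand floor. For rps3, 158 of its 2661 aligned bases in CC125 were above the floor. In CC5325 it had 589 aligned bases, not scaled to the library and with no floor taken off. With the floor taken off in both libraries its log2 ratio was 0.032. On the minus strand rps2 had 0.0642 TPM in CC5325, against 0.102 TPM in CC125, and rps9 had 0.0384 TPM in CC5325 against 0.0983 in CC125. Both CC125 values are at that strand's floor. The rps14 gene was listed at 0 in CC5325 and at 0.122 TPM in CC125, 1.30 times the floor.

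Large-subunit ribosomal protein genes all lie outside the stretch, and their values came from few reads. The 7 genes held 922 aligned bases (about 6 reads) in CC5325 and 334 (about 2) in CC125, and the ratio of these sums after scaling was 1.25 (0.242 to 13.7). Of them 6 follow each other on the plus strand from rpl36 at 20931 to rpl5 ending at 29728, with rps19 among them. Coverage along this run was highest at rpl5 in both libraries. In CC5325 it was 0.140 at rpl36, 0.0220 at rpl23, 0 at rpl2, 0.105 at rps19, 0.0761 at rpl16, 0.125 at rpl14 and 0.328 at rpl5. In CC125 it was 0 at rpl36, 0.0190 at rpl23, 0.0438 at rpl2, 0.00956 at rps19, 0 at rpl16 and rpl14, and 0.185 at rpl5. The rpl5 gene (CreCp.g802278, 28453 to 29728), whose protein binds 5S ribosomal RNA, was the highest of the class in both, at 0.129 TPM in CC5325, against 0.161 TPM in CC125. A listed 0 does not show absence at this depth: 3 reads in rpl16 would be a coverage of 0.350, more than any gene of the run had.

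The seventh, rpl20 (CreCp.g802268, 14525 to 15056), had 0.124 TPM in CC5325, against 0.0131 TPM in CC125. This was 169 aligned bases in CC5325 and 8 in CC125, so the CC125 value rests on less than 1 read. Of the class, 4 genes were higher and 3 lower in CC5325 by TPM, with log2 ratios between -0.054 and 0.15.

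Of the 5 RNA polymerase rows, rpoC2 was the 1 whose counting interval excluded equality, and its CC125 value lies at the strand floor. The β subunit is annotated as 2 rows, rpoB1 and rpoB2, rpoC1 and rpoC2 encode the β′ and β″ subunits, and rpoA encodes the α subunit on which the enzyme assembles. The rpoC2 gene (CreCp.g802311, 106924 to 116765) had 0.0216 TPM in CC5325, against 0.603 TPM in CC125. By coverage that is 27.9-fold higher in CC125 (9.31 to 97.5), the largest such ratio with an interval off equality among the 34 genes. Its CC125 coverage of 0.695 is 1.06 times the plus-strand floor, and 374 of its 6837 aligned bases lay above that floor. In CC5325 it had 543 aligned bases, not scaled to the library and with no floor taken off. With the floor taken off in both libraries its log2 ratio was -0.018 and its interval took in equality. But the floor was set just below this CC125 value, so that step decides nothing.

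The rpoC1 gene (CreCp.g802335, 194526 to 201430) lies outside the stretch and had 0.0403 TPM in CC5325, against 0.000078 TPM in CC125. It had 710 aligned bases in CC5325 and less than 1 base in CC125. That is about 5 reads against none, and the interval of the ratio starts at 0.413 and so takes in equality. The rpoB2 row had 0.0750 TPM in CC5325, against 0.145 TPM in CC125, rpoB1 had 0.00921 TPM in CC5325 against 0.0975 in CC125, and rpoA had 0.0104 TPM in CC5325 against 0.0996 in CC125. In CC125 rpoB1 and rpoA were within 10% of the minus-strand floor and rpoB2 was at 1.56 times it.

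Of the 2 remaining single genes of known role, tufA was not separated between the libraries. The tufA gene (CreCp.g802267, 11137 to 13082) encodes the elongation factor EF-Tu, which brings aminoacyl-tRNA to the ribosome. It had 0.149 TPM in CC5325, against 0.167 TPM in CC125, from 740 aligned bases in CC5325 and 374 in CC125, with a coverage ratio of 0.893 (0.185 to 11.8). This interval is too wide to call the levels equal. The clpP gene (CreCp.g802269, 16204 to 18155), for the proteolytic subunit of the plastid Clp protease, had 0.00361 TPM in CC5325, against 0.0689 TPM in CC125. These are 18 aligned bases in CC5325, part of 1 read, and 155 in CC125, about 1 read.

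The intron-encoded frame icreI was the most abundant of the 34 genes in both libraries, and on the library-wide scale it was lower in CC5325. It encodes the homing endonuclease I-CreI and lies in the intron of the plastid large ribosomal RNA gene, which both repeat copies hold. The icreI copy at 43113 to 44000 (CreCp.g802284) had 0.755 TPM in CC5325, against 3.07 TPM in CC125, and the copy at 148278 to 149165 (CreCp.g802322) had 0.848 TPM in CC5325 against 6.08 in CC125. The coverage of the 2 copies was 1.93 and 2.16 reads per base in CC5325, against 3.35 and 3.84 in CC125, so in CC125 the copies were closer by coverage than by TPM. In CC5325 the copy at 43113 lies between assembled loci ending at 43112 (coverage 16602) and starting at 44001 (coverage 31114). In CC125 both copies lie within the assembled locus from 37157 to 155095 (coverage 4508). The part of these loci in the icreI values was not tested. As 1 gene, icreI had a log2 ratio of -1.63, or -1.19 with TPM recomputed from coverage. By coverage it was 3.90-fold higher in CC125 (2.36 to 6.84), from about 24 reads in CC5325 and 43 in CC125 over both copies. Reads can be shared between the copies, so the interval is too narrow. Scaled to the photosynthesis genes outside the repeat and the stretch, the ratio of CC5325 to CC125 was 0.717 (0.408 to 1.19), which takes in equality. With all plastid photosynthesis genes scaled to the same summed TPM the log2 ratio was -0.73, short of 2-fold. The psbA gene of the same repeat was 4.32-fold higher in CC125 by coverage (3.98 to 4.69).

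The remaining frames were mostly under 1 read in 1 library or both. Outside the stretch, ycf1 (161186 to 168429), whose land-plant counterpart is a part of the envelope protein translocon, had 0.00950 TPM in CC5325, against 0.000081 TPM in CC125. The ftsH row (175803 to 186308) had 0.00287 TPM in CC5325 against 0.00793 in CC125, orf528 had 0.00985 TPM in CC5325 against 0.000628 in CC125, and orf854 had 0.0458 TPM in CC5325 against 0.000593 in CC125. In CC125 ycf1, orf528 and orf854 each had fewer than 2 aligned bases, and in CC5325 orf854, the best covered, had 316. Within the stretch orf202 was listed at 0 in CC5325 and at 0.0967 TPM in CC125, and so were pafI (0 in CC5325, 0.0942 TPM in CC125) and ycf12 (0 in CC5325, 0.0932 TPM in CC125). The pafII gene had 0.0399 TPM in CC5325 against 0.1003 in CC125. All 4 CC125 values lie within 10% of the minus-strand floor.

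**Figure D3:**
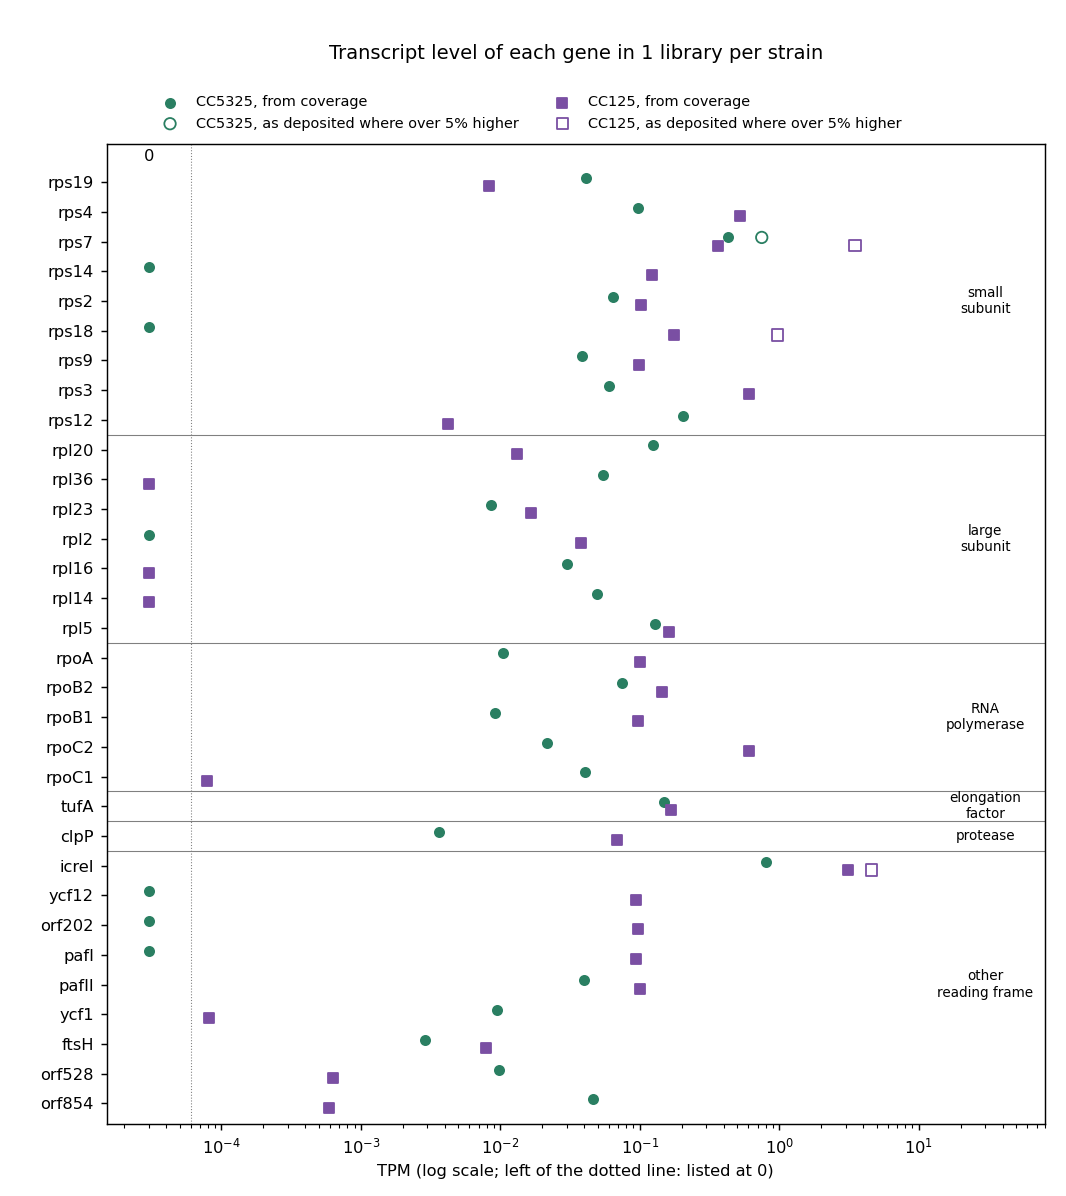
Level of 32 of the 34 genes in CC5325 (circles) and CC125 (squares), 1 library each, in TPM on a log axis; filled marks are recomputed from coverage, open marks are deposited values over 5% higher, and marks left of the dotted line are listed at 0. The deposited rps7 value of 3.48 TPM in CC125 stands far right of the 0.364 TPM that its coverage gives.

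Set against each other by the deposited TPM, 2 of the 34 genes had a mean of at least 1 TPM, and both, icreI and rps7, were at least 2-fold lower in CC5325 on the log2(TPM + 1) scale. Among the 175 annotated rows with that mean, 10.3% were at least 2-fold lower and 34.9% at least 2-fold higher in CC5325, with a median log2 ratio of 0.41. Both genes were below 1 TPM in CC5325, so they could pass only with a ratio below 0. The count of 2 fell to 1, icreI, when TPM was recomputed from coverage, and to 0 when the plastid photosynthesis genes were scaled to the same sum in both libraries.

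By coverage, 14 of the 34 genes had at least 3 reads in both libraries together. The counting interval lay below equality, CC5325 over CC125, for 4 of them, rps4, icreI, rps3 and rpoC2, beside 2.13% of 4363 annotated rows of that depth. It lay above equality for none of the 14, beside 16.3% of the rows. Reads in those rows are upper limits, because nuclear spans hold introns. With the strand floor taken off, rps3 and rpoC2 no longer lay below equality. The other two, rps4 and icreI, lie outside the stretch, so this step left their coverage as it was. With coverage scaled to the 16 plastid photosynthesis genes outside the repeat and the stretch, the intervals of icreI and rps4 took in equality. On that scale rps3 and rpoC2 were below equality and rpoC1 above, beside 0.344% of annotated rows below and 51.7% above. No gene was called on both scales and with the floor removed. For rps3 and rpoC2, called on both scales, the floor step decides nothing.

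By position, the genes were counted by the sign of their TPM ratio, with no test of the parts against each other. Left of the repeat copies 6 of 12 genes were higher in CC5325 by TPM and 6 lower, between the psbA copies 0 of 15 were higher, where the CC125 floor lies, and right of the repeat copies 5 of 6 were. Of the photosynthesis genes 5 of 7 were higher in CC5325 on the left, 4 of 21 between the psbA copies and 1 of 9 on the right. The left genes together held 2591 aligned bases in CC5325 and 2134 in CC125, a scaled ratio of 0.548 (0.254 to 1.20). The right genes held 1838 aligned bases in CC5325 and 106 in CC125, a ratio of 7.85 (0.801 to 231), from about 12 reads in CC5325 and 1 in CC125. Both intervals take in equality. The photosynthesis genes on the right had a ratio of 0.307 (0.229 to 0.409), in the opposite direction. Those on the left had a ratio of 0.989 (0.451 to 2.35). The genes between the psbA copies held 4574 aligned bases in CC5325 and 13385 in CC125, a ratio of 0.154 (0.0970 to 0.232). With the strand floor taken off they held 4516 in CC5325 and 1282 in CC125, a ratio of 1.59 (0.696 to 3.60). The floor is the lowest CC125 value of each strand there, so the fall in CC125 bases follows from how it was set.

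The 34 genes were far less covered than the photosynthesis genes of the same plastome. Their median coverage was 0.102 in CC5325 and 0.110 in CC125, against 0.687 in CC5325 and 0.657 in CC125 for the photosynthesis genes. The 34 genes took up 58.1% of the span of plastid gene rows. They held 6.09% of the aligned bases of those rows in CC5325 (95% exact binomial interval 4.87% to 7.46%) and 6.59% in CC125 (5.60% to 7.71%). These near-equal shares depend on the rows and the unit. Without rows that overlap an assembled locus of at least 1000 TPM the share was 21.9% in CC5325 (15.5% to 30.2%) and 10.1% in CC125 (5.82% to 16.3%), and by summed TPM it was 11.9% in CC5325 and 17.1% in CC125. The ratio of summed aligned bases, scaled to the library, was 0.259 (0.195 to 0.339) for the 34 genes and 0.282 (0.263 to 0.302) for the photosynthesis genes, and the interval of the first takes in the second. Both ratios include the strand floor. The photosynthesis sums, which also enter the shares, are mostly psbA. It held 133503 of 194961 bases in CC5325 and 260288 of 312008 in CC125, with a ratio of 0.231. The other photosynthesis genes had ratios of 0.989 on the left, 0.647 between the psbA copies and 0.307 on the right.

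Nuclear genes for the same processes were counted by the same coverage interval, with reads that are upper limits because spans hold introns. Of 37 nuclear genes for plastid ribosomal proteins, 32 had at least 3 reads, and the counting interval lay above equality for 6 and below for 0. PSRP1, a plastid-specific ribosomal protein, had 1.90 TPM in CC5325, against 0.307 TPM in CC125, with an interval of 2.93 to 14.2. PSRP3 had 0.735 TPM in CC5325 against 0.193 in CC125, with an interval of 1.58 to 10.5. PRPL7 had 0.973 TPM in CC5325 against 0.277 in CC125, and its interval, 0.994 to 17.3, took in equality. Of 13 genes for nuclear subunits of the Clp protease, 7 had 3 reads, with 3 above and 0 below, among them the chaperone gene CLPC1, with 0.343 TPM in CC5325 against 0.0839 in CC125. Of 13 translation and sigma factor genes, 8 had 3 reads, with 2 above and 0 below, and of 104 genes for factors of single plastid transcripts, 21 had, with 2 above and 0 below. Over all annotated rows of that depth 16.3% were above and 2.13% below, so the count of 6 of 32 is near the background and no result is read from these small lists. CIF3 and RAA11, 2 of the genes above equality, lie in a run of 36 adjacent genes that starts chromosome 1 with a median coverage of 2.83 in CC5325 and 0.000475 in CC125.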

How the data were processed

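The deposited files are gene abundance tables of StringTie, 1 per library. StringTie 2.2.3, HISAT2 2.2.1, FastQC 0.12.1 and Trimmomatic are listed in the submitters' processing notes, whose settings the sources used here do not give. Coverage, as deposited, is a signal: mean reads per base. The deposited FPKM and TPM values were scaled by the authors' run, and assembled loci alone sum to 1000000 TPM, with annotated rows on top. Gene positions are those of the files, on the CC-4532 annotation, version 6.1.

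Aligned bases are Coverage times span, and reads are these bases over 150. TPM from coverage is Coverage times a factor, the median of TPM over Coverage among annotated rows (0.392 in CC5325, 0.868 in CC125). Ratios are CC5325 over CC125, with a pseudocount of 1 TPM. Intervals are exact binomial at 95%, conditional on the reads of both libraries. They cover counting error only, treat mates as independent and are therefore the narrowest the depth allows. The interval was checked on simulated reads that were whole, independent and more numerous than in most of these genes. That check does not cover fractional or shared reads.

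All 34 genes enter the counts and sums, and 2 are not reported here by name; nuclear genes are the 3 with the highest mean TPM per list, of which some are left out. The members and lists were chosen with earlier results of these data known, and the 10% band and the strand floor after seeing the values. No sequences are shown. Calculations ran in Python 3.11.15 with scipy 1.17.1, pandas 2.3.3, matplotlib 3.10.9 and numpy 2.4.6.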

Additional observations from a re-analysis of the deposited data

How the results depend on the processing

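The count of 2 genes at least 2-fold lower in CC5325 was 0 with a pseudocount of 5 TPM, with FPKM, with plastid photosynthesis genes scaled to the same sum and without genes overlapping an abundant assembled locus, where no gene kept a mean of 1 TPM. It was 1 with TPM recomputed from coverage and with the strand floor taken off. The log2 ratio of rps7 then turned positive, at 0.071 and 0.17. The median log2 ratio of these 2 genes, -1.49, was -2.23 with a pseudocount of 0.1 TPM, -0.64 with 5 TPM, -0.067 over all 34 genes without a filter, -0.65 over 7 genes at a minimum mean of 0.2 TPM and -0.62 with photosynthesis genes scaled. The count of genes higher in CC5325 was 0 in each of these settings. No gene reached 1 TPM in CC5325, so with deposited TPM the filter or the pseudocount fixed this 0 in advance. It is not read as a result.

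The small-subunit class median was -0.17, and -1.03 with a pseudocount of 0.1 TPM. It was -0.081 with TPM recomputed from coverage and 0.047 with the strand floor taken off. The RNA polymerase class median was -0.12, and -0.85 with a pseudocount of 0.1 TPM. It was -0.12 with TPM recomputed from coverage and 0.0070 with the strand floor taken off. Coverage intervals below equality numbered 4, and 2 with the strand floor taken off or with coverage scaled to photosynthesis genes outside the repeat, where 1 lay above. Genes listed above 0 numbered 11 in CC5325 and 7 in CC125 at 3 reads, beside 22.1% of all annotated rows in CC5325 and 3.93% in CC125. Outside the psbA stretch they numbered 18 in CC5325 and 16 in CC125. The share of plastid aligned bases was 11.9% in CC5325 and 17.1% in CC125 by summed TPM, and 21.9% in CC5325 and 10.1% in CC125 without rows overlapping an abundant locus. The cause of these changes was not tested, other than that fewer genes or another unit enter.

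The strand floor, the scaled coverage and leaving out pafI, pafII and ycf12 were chosen after seeing the data. No paired analysis was possible because each strain has 1 library. Few reads in these genes limit the values of most of them: 20 of 34 had fewer than 3 reads in both libraries together.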
